A study of Pimephales promelas and Coturnix japonica and Xenopus laevis with 724 samples.

Results

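Of the 42403 s2f identifiers counted across the 6 species of this RNA sequencing series, 3237 had a count above 0 in bird livers only. These are the deposited count tables' own feature names. Of the 3237, 362 had a count above 0 in the benzo[a]pyrene tables of both the double-crested cormorant and the early-life Japanese quail. They were ranked by the lower of their mean control levels in those tables, and the top 200 are described here. Levels are in CPM, the count divided by the library's total and scaled to 1000000. The selection rests on measured values, so the control levels of those 2 tables are description and carry no test. None of the 200 identifiers was listed in any of the 29 fish and frog tables, which hold 474 libraries. In the 39 tables of the series whose columns were all used, the smallest row sum was 1. Those tables list only identifiers counted in them, while tables with unused columns also list some at 0 in every library used. An identifier without a row in a bird table was taken as 0 in sums and in detection counts.

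All bird libraries were made from total RNA of liver, per the labels. The chemicals were benzo[a]pyrene (a combustion product), chlorpyrifos (an insecticide that inhibits acetylcholinesterase), ethinylestradiol (the oestrogen of contraceptive pills) and fluoxetine (an antidepressant that blocks serotonin reuptake), and hexabromocyclododecane (a flame retardant), lead, selenomethionine (an organic selenium compound) and trenbolone (a synthetic androgen). The labels abbreviate these names, and the full names are background knowledge of the project. Each table covers 1 species, stage and chemical, at levels MED and HIGH with no dose stated, and controls are labelled dmso (the solvent) at level CTRL. Early-life cormorants had MED, HIGH and CTRL libraries for benzo[a]pyrene, chlorpyrifos and fluoxetine, and MED and HIGH libraries for ethinylestradiol. Adult quail had all 3 levels for benzo[a]pyrene, ethinylestradiol and lead, and MED and HIGH for chlorpyrifos, fluoxetine, hexabromocyclododecane, selenomethionine and trenbolone. Early-life quail had all 3 levels for benzo[a]pyrene, ethinylestradiol, selenomethionine and trenbolone, and MED and HIGH for chlorpyrifos, fluoxetine and hexabromocyclododecane. Each group held 5 libraries, except 4 chlorpyrifos controls in cormorants and 6 ethinylestradiol controls in adult quail. No label says whether a group's libraries stem from different birds. In tests on single libraries, p-values therefore reflect the scatter among these libraries alone, which could be technical. Those of the stage and species comparisons reflect the scatter among control counts summed per table, 2 tables against 3. The labels give no age within a stage.

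The liver makes plasma proteins, bile and yolk precursors and carries the enzymes that oxidise and conjugate foreign compounds. In egg-laying birds oestrogens switch on the hepatic synthesis of yolk proteins, and polycyclic aromatic hydrocarbons induce cytochrome P450 enzymes through the aryl hydrocarbon receptor. Whether fish and frogs lack the genes behind these identifiers, or count them under other names, was not tested. Many fish and frog tables are of embryos, while every bird library is of liver. For those tables, species and sampled tissue cannot be told apart in this selection. The files pair no identifier with a gene, and 0 of the 200 matched the available reference table of 64593 genes. No function, gene name or sequence is therefore given for any of them, and liver cell type markers could not be checked.

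The 240 distinct bird libraries held 7749387 to 49078234 counts each. A lead table labelled early-life quail repeats the counts of 10 adult lead libraries. It was left out, the adult label was kept, and the stage of the lead libraries is in doubt. The 200 identifiers together took 41.7 to 2773 CPM of a library, so each library is deep in total and shallow for most of them.

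Most of the 200 identifiers were rare. The lower of their control means was 1 CPM or more for 4 identifiers, 0.1 CPM or more for 71 and below 0.1 CPM for 129, with a median of 0.061 CPM. Only 41 had a count in all 10 control libraries that ranked them. The identifier ranked first, s2f_0005167008, averaged 2.63 CPM in the cormorant controls and 4.15 CPM in the early-life quail controls. Next came s2f_0000229041, which averaged 1.79 CPM in cormorant controls and 1.83 CPM in quail controls. The following 3 ranks were higher in the cormorant controls. There s2f_0001790006 averaged 3.23 CPM in cormorants (median 2.34) and 1.52 CPM in quail (median 1.26). For s2f_0000978002 the means were 3.42 CPM in cormorants (median 2.75) and 1.28 CPM in quail (median 1.29). For s2f_0460360001 they were 2.80 CPM in cormorants and 0.918 CPM in quail. At rank 100, s2f_0460437001 averaged 0.0968 CPM in cormorants and 0.0618 CPM in quail. Its cormorant mean rests mostly on control 2, at 0.429 CPM, against at most 0.0552 CPM in the other controls. That library stands apart, as described below.

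The last identifier taken, s2f_0000025016, averaged 0.0116 CPM in cormorant controls, which is 1 count in 1 library, and 0.0812 CPM in quail controls. Its lower mean was tied with 3 identifiers left outside, so the edge of the list is set by single counts. The first of those left outside, s2f_0008026003, had the same 0.0116 CPM in cormorant controls and 0.228 CPM in quail controls. Elsewhere that identifier was abundant: it had 26.1 to 267 CPM in the 10 cormorant ethinylestradiol libraries (median 148), against 0 to 0.325 CPM in the 44 other cormorant libraries, 25 of which were at 0. It stayed at or below 0.879 CPM in every quail library, the quail ethinylestradiol libraries included. The cormorant ethinylestradiol table has no labelled control, so the chemical and the table cannot be told apart.

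**Figure D1:**
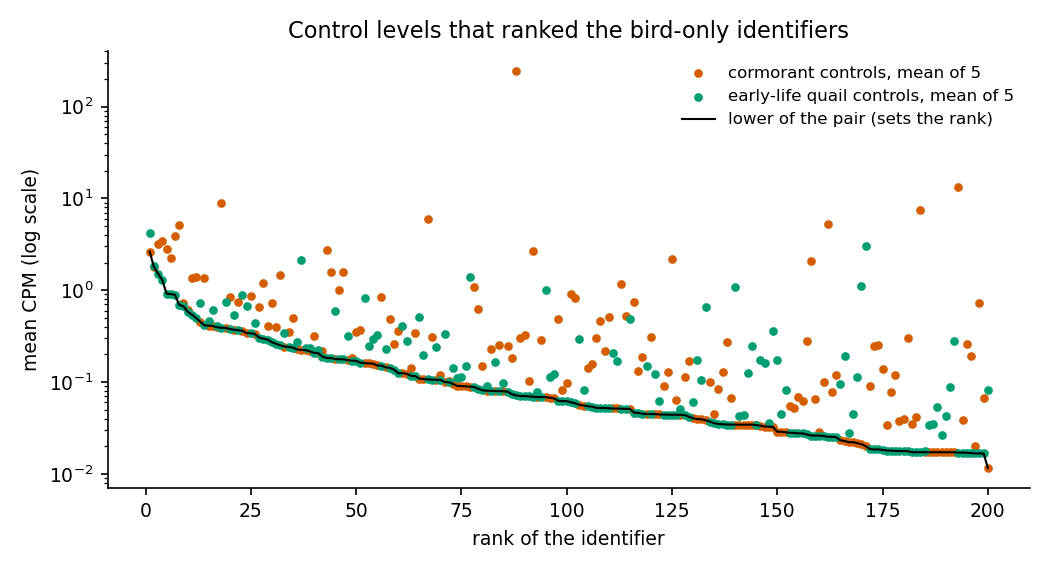
Mean CPM (log axis) of each of the 200 identifiers in the cormorant and early-life quail benzo[a]pyrene controls against rank, with the lower of the pair as a line. The line runs from 2.63 CPM at rank 1 to 0.0116 CPM at rank 200. Points far above it have a higher mean in 1 of the species. The highest point, s2f_0031957001 at 247 CPM in cormorants, rests on control 2 alone. That library had 1235 CPM and the other cormorant controls at most 0.390 CPM.

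Detection carried over to the tables that had no part in the ranking. In 39 other cormorant libraries all but 1 of the 200 identifiers had a count, and 34 had one in every library. In 96 adult quail libraries 195 had a count and 19 had one in every library, and in 75 other early-life quail libraries the numbers were 200 and 36. A total of 194 identifiers were counted in all 3 kinds of liver, and 5 were counted in both early-life kinds and not in adult quail. A single count over all libraries of a kind suffices here: s2f_0014640001 is included with 1 count in adult quail and 3 in early-life quail. No share over all identifiers stands beside these numbers. The list was chosen on early-life livers, so an identifier counted in adults alone could not enter it.

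In pooled counts adult quail livers carried the largest summed level of these identifiers, and 1 identifier made most of it. In the median library the order was different, with a summed 87.4 CPM in adult quail, 95.5 CPM in cormorants and 53.1 CPM in early-life quail over all tables. With all libraries of a kind pooled, the 200 identifiers came to 214.2 CPM in adult quail, 105 CPM in cormorants and 55.1 CPM in early-life quail, outside the ranking tables. The most abundant identifier made 61.0% of the adult quail sum, 16.0% of the cormorant sum and 7.78% of the early-life quail sum. The 5 most abundant made 78.0%, 39.2% and 22.8% in that order of livers. The median pooled level of the 200 was 0.0673 CPM in adult quail, 0.123 CPM in cormorants and 0.108 CPM in early-life quail. The list was ranked on early-life livers, which favours early-life levels. On library totals the median over all tested identifiers was also lower in adult than in early-life quail controls, as given below. The lower adult level is therefore not read as particular to the 200. The median over libraries was 0 for 96 identifiers in adult quail, 71 in cormorants and 58 in early-life quail. It reached 1 CPM for 9, 19 and 9 of them.

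Set side by side, 30 identifiers had a pooled level at least 2-fold higher in adult than in early-life quail, 94 at least 2-fold lower and 76 lay in between, with a median ratio of 0.521. At least 10-fold apart were 7 that were higher in adults and 22 that were lower. Between cormorants and early-life quail, 68 were at least 2-fold higher in cormorants, 60 at least 2-fold lower and 72 lay in between, with a median ratio of 1.14. At least 10-fold apart were 24 that were higher in cormorants and 13 that were lower. These counts have no share over all identifiers beside them, so neither split is read as particular to the list. On library totals, the scaling of these pooled levels, the median over all tested identifiers was also lower in adult than in early-life quail controls. The adult pool includes the lead libraries, whose stage is in doubt.

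The identifiers with the highest pooled level in each kind were picked out after their values had been seen. In adult quail it was s2f_0007206002, rank 15, with a pooled level of 131 CPM, against 0.265 CPM in cormorants and 0.590 CPM in early-life quail. Over single libraries it ranged from 0.561 to 2701 CPM in adult quail (median 13.0), from 0 to 1.28 CPM in cormorants (median 0.168) and from 0.111 to 2.48 CPM in early-life quail (median 0.478). It was at 100 CPM or more in 13 of the 96 adult libraries and at 10 CPM or more in 57. Second in adult quail was s2f_0005167008, with a pooled 12.9 CPM in adult quail, 4.30 CPM in cormorants and 4.29 CPM in early-life quail. It ranged from 3.02 to 33.6 CPM in adult quail (median 12.04), from 1.03 to 10.8 CPM in cormorants (median 3.83) and from 0.608 to 10.3 CPM in early-life quail (median 3.93). After it came s2f_0000376003, which had 9.60 CPM in adult quail, 0.0601 CPM in cormorants and 0.140 CPM in early-life quail.

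Cormorant livers had a different leading identifier. For s2f_0014640001, rank 193, the pooled level was 16.8 CPM in cormorants, 0.000609 CPM in adult quail (1 count) and 0.00184 CPM in early-life quail (3 counts in all). It lay between 9.29 and 26.2 CPM in 53 of the 54 cormorant libraries, and the remaining one, control 2 of the benzo[a]pyrene table, had 0.514 CPM. Also led by cormorants, s2f_0039692001 had 9.49 CPM in cormorants, 0.258 CPM in adult quail and 0.148 CPM in early-life quail. For s2f_0569354001 the levels were 6.90 CPM in cormorants, 0.00122 CPM in adult quail and 0.0153 CPM in early-life quail. The reverse held for s2f_0004677008, with 0.0247 CPM in cormorants against 6.62 CPM in adult quail and 2.60 CPM in early-life quail. Rank 2, s2f_0000229041, had nearly the same pooled level in cormorants, 2.08 CPM, as in early-life quail, 2.10 CPM, with 1.45 CPM in adult quail.

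**Figure D2:**
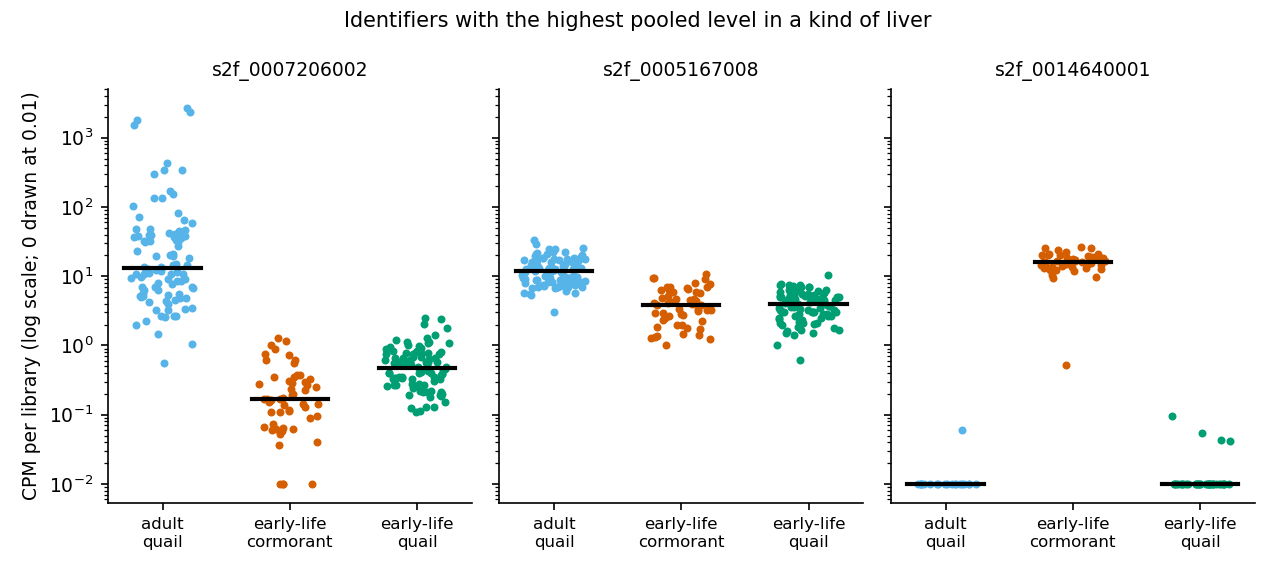
CPM per library (log axis, 0 drawn at 0.01) of s2f_0007206002, s2f_0005167008 and s2f_0014640001 in adult quail, early-life cormorant and early-life quail liver, where a table lists the identifier, with the median as a bar. The adult quail medians of the first pair are 13.0 and 12.04 CPM, and s2f_0014640001 is high in the cormorant libraries other than 1 at 0.514 CPM.

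A few libraries stood apart in the summed level of the 200 identifiers. The sum was more than 2 times its group's median in 15 libraries, 14 of adult quail and 1 of cormorant, and 9 of them were led by s2f_0007206002. The highest were adult fluoxetine HIGH 1, with 2773 CPM in all and 2701 CPM from that identifier, and ethinylestradiol MED 3, with 2451 and 2380 CPM. Next came fluoxetine HIGH 2, with 1891 and 1821 CPM, and trenbolone MED 4, with 1604 and 1521 CPM. Controls were among them: lead control 3 had 425 CPM of s2f_0007206002, and benzo[a]pyrene control 3 had 340 CPM. In the 9 libraries it led, at most 6 of all identifiers were high in that library alone, meaning at least 5 CPM and 10 times the highest of the group's others. This measure misses identifiers that are high in 2 libraries of a group. It was 0 in fluoxetine HIGH 1 and HIGH 2, where it leaves out s2f_0007206002 itself.

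In 6 adult libraries another 3 identifiers were high together, an observation made after their values had been seen. These were ethinylestradiol control 1, hexabromocyclododecane MED 3, lead controls 2 and 4, lead MED 5 and trenbolone MED 5. There s2f_0007396001 had 27.2 to 140 CPM, against 0.219 to 4.26 CPM in the other 90 adult libraries. In the same 6 libraries s2f_0000344021 had 20.8 to 41.4 CPM, against 0 to 10.8 CPM in the others. Rank 2, s2f_0000229041, had 6.91 to 17.0 CPM there, against 0 to 2.25 CPM. The 6 are the adult libraries with 10 CPM or more of both s2f_0007396001 and s2f_0000344021, so these identifiers are high there by choice. The groups overlap for none of the 3, with no share over all identifiers beside that. The 6 libraries come from 4 chemicals and include controls. Of the 4 that stood apart by their sum, 267 of all identifiers were high in hexabromocyclododecane MED 3 alone, 112 in lead MED 5, 82 in trenbolone MED 5 and 56 in ethinylestradiol control 1. The makeup of those samples was not tested.

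The cormorant library that stood apart was benzo[a]pyrene control 2, with a summed 1466 CPM, of which s2f_0031957001 made 1235 CPM. In this library 365 of all identifiers were high alone, 3 of the 200 among them. It is 1 of the 5 cormorant controls behind the ranking. Ranked without it, 178 of the 200 identifiers stayed on the list.

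**Figure D3:**
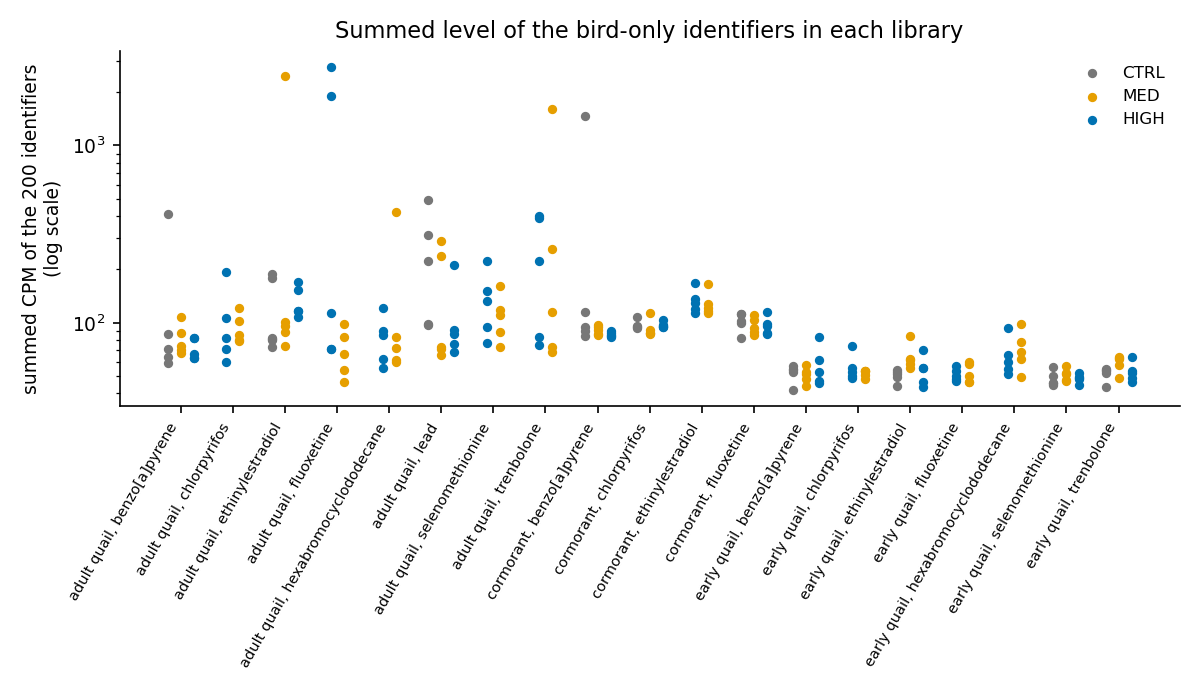
Summed CPM of the 200 identifiers in each library (log axis), by table and level. Early-life quail libraries lie between 41.7 and 98.2 CPM, cormorant libraries other than benzo[a]pyrene control 2 between 81.7 and 167 CPM, and single adult quail libraries reach 2773 CPM.

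Adult and early-life quail livers were compared on controls with counts summed per table, 11 adult control libraries in the benzo[a]pyrene and ethinylestradiol tables against 15 early-life control libraries in the ethinylestradiol, selenomethionine and trenbolone tables. Of the 200 identifiers, 108 passed the filter on low counts. Those include identifiers that passed only through the side where they are high and therefore had to differ. By edgeR's quasi-likelihood test, 45 of the 108 passed a Benjamini-Hochberg adjusted p of 0.05, which is 41.7%, against 63% of all 14645 identifiers tested. Higher in adults were 31, or 28.7% of the 108, against 30.7% of all, and lower in adults were 14, or 13%, against 32.3% of all. The median log2 fold change was 0.15 for the 108 and -0.03 for all. Scaled by library totals instead of TMM factors, 63 passed, 28 higher and 35 lower, with no share over all identifiers beside these counts. The median over all identifiers moved to -0.77, so the split between higher and lower rests on the scaling. Each stage has its own tables, so stage, table and library preparation cannot be told apart here.

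Rank 1, s2f_0005167008, was higher in adult controls under both scalings. It averaged 15.2 ± 6.59 CPM in adult benzo[a]pyrene controls (SD, n = 5) and 16.3 ± 5.43 CPM in adult ethinylestradiol controls (SD, n = 6). Early-life controls averaged 3.46 ± 1.02 CPM for ethinylestradiol, 3.42 ± 1.13 CPM for selenomethionine and 3.98 ± 1.31 CPM for trenbolone (SD, n = 5 each). The lowest of these adult controls had 8.46 CPM and the highest of these early-life ones 5.36 CPM, so the controls of the tested tables did not overlap. The log2 fold change was 2.79 (SE 0.10; edgeR adjusted p = 4.724e-06), and 2.05 with library totals. The lead controls, whose stage is in doubt and which stayed out of the test, averaged 17.7 ± 10.8 CPM (SD, n = 5). The lowest of them had 6.07 CPM, below the highest early-life benzo[a]pyrene control, also outside the test, at 7.73 CPM.

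The adult-leading s2f_0007206002 had these levels in controls. Adult benzo[a]pyrene controls had 1.98, 2.26, 340, 3.20 and 23.1 CPM, and adult ethinylestradiol controls had 9.03, 2.70, 4.92, 105, 14.9 and 6.94 CPM. Early-life controls of the 3 tables lay between 0.128 and 1.42 CPM. All 11 adult controls were above all 15 early-life ones, although 2 of them were far above the other 9. As a description, since it was picked for its adult level over libraries that include these, the log2 fold change was 7.03, and 4.62 without the libraries that stand apart.

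Of the other leading ranks, s2f_0001790006 fell in adults by 0.89 on the log2 scale (SE 0.22; edgeR adjusted p = 0.0107), with 0.636 ± 0.154 CPM in adult ethinylestradiol controls (SD, n = 6) against 1.78 ± 0.577 CPM in early-life ones (SD, n = 5). With library totals its log2 fold change was -1.62. For s2f_0000978002 the log2 fold change was 0.32 (adjusted p = 0.251) and for s2f_0460360001 it was 0.01 (adjusted p = 0.969). For s2f_0000229041 it was 0.12 (adjusted p = 0.697). Without the libraries that stand apart, among them ethinylestradiol control 1, it was -0.88. That control is 1 of the 6 libraries where s2f_0000229041 was high. The libraries left out of this comparison were all adult controls, picked for a high summed level of the listed identifiers. That choice can lower the adult side, so -0.88 is a description and carries no test.

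Cormorant and early-life quail controls were compared in the same way, with 9 cormorant controls in the chlorpyrifos and fluoxetine tables and the same 15 quail controls. Here 116 of the 200 identifiers passed the filter and 65 passed the test, which is 56%, against 71.1% of all 14653 identifiers tested. As in the stage comparison, the 116 include identifiers that passed only through the side where they are high and therefore had to differ. Higher in cormorants were 35, or 30.2% of the 116, against 36.5% of all, and lower were 30, or 25.9%, against 34.6% of all. The median log2 fold change was -0.05 for the 116 and 0.03 for all. With library totals the median of all was 0.14 and 65 passed, 37 higher and 28 lower, with no share over all identifiers beside these counts. Species, library preparation and the table cannot be told apart in this contrast. It shares its quail controls with the stage comparison.

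Rank 5, s2f_0460360001, averaged 2.29 ± 0.559 CPM in cormorant chlorpyrifos controls (SD, n = 4) and 2.28 ± 0.352 CPM in cormorant fluoxetine controls (SD, n = 5). Early-life quail controls averaged 0.713 ± 0.200 CPM for ethinylestradiol, 0.847 ± 0.290 CPM for selenomethionine and 0.647 ± 0.410 CPM for trenbolone (SD, n = 5 each). The lowest cormorant control, 1.71 CPM, was above the highest quail control, 1.27 CPM. That is a log2 fold change of 1.48 (SE 0.25; edgeR adjusted p = 0.00145). Rank 4, s2f_0000978002, was higher in cormorants by 0.69 (SE 0.21; adjusted p = 0.0214).

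Lower in cormorant controls was s2f_0007472015, with a log2 fold change of -2.57 (SE 0.43; edgeR adjusted p = 0.00133). It averaged 0.214 ± 0.0894 CPM in cormorant chlorpyrifos controls (SD, n = 4) and 0.178 ± 0.108 CPM in cormorant fluoxetine controls (SD, n = 5). Quail controls averaged 1.53 ± 0.559 CPM for ethinylestradiol, 0.788 ± 0.530 CPM for selenomethionine and 0.973 ± 0.616 CPM for trenbolone (SD, n = 5 each). Single libraries overlapped: the highest cormorant fluoxetine control had 0.307 CPM and the lowest quail selenomethionine control 0.181 CPM. Also lower was s2f_0007206002, by a log2 fold change of -1.91 (SE 0.44; adjusted p = 0.00636). Rank 1, s2f_0005167008, had a log2 fold change of 0.26 between the species (SE 0.16; adjusted p = 0.173) and did not pass. The cormorant-leading s2f_0014640001 was not tested, since not every quail table used lists it.

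**Figure D4:**
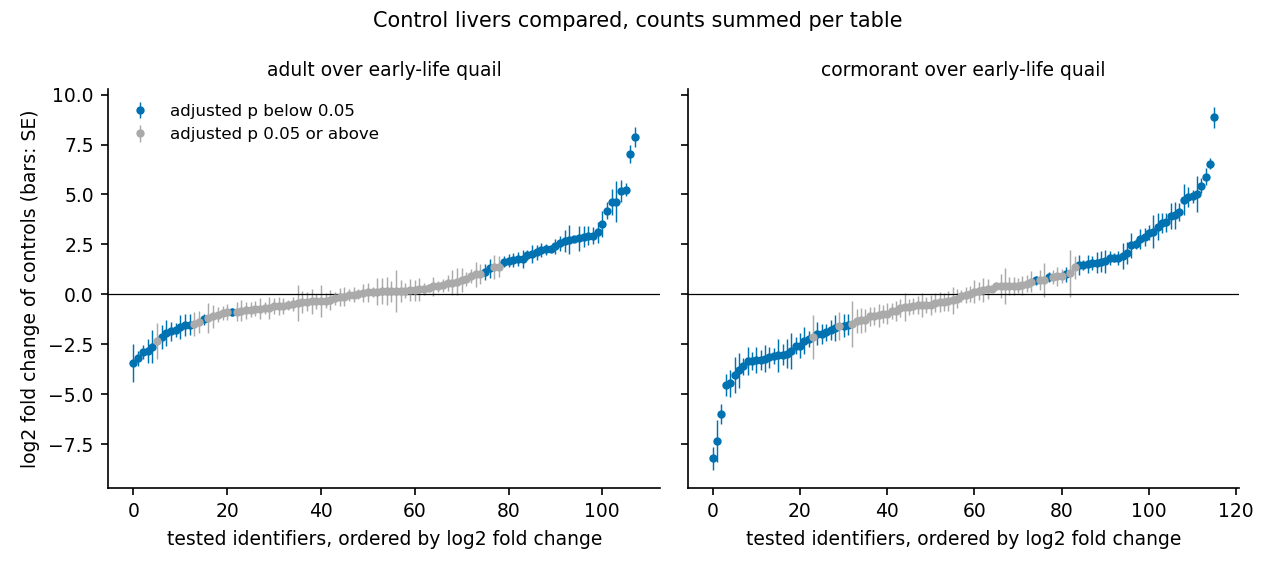
Log2 fold change with its SE for each tested identifier, in order of size, for adult over early-life quail controls (108 identifiers) and cormorant over early-life quail controls (116). Identifiers past an adjusted p of 0.05 are coloured, 45 in the first panel and 65 in the second, and fitted changes of identifiers at or near 0 on 1 side depend on the fit's prior count.

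Of the 200 identifiers, 3 were called in a comparison of exposure levels. Over 27 such comparisons, 15 to 40 of the 200 passed the filter in a comparison, 85 passed it in at least 1 and 115 in none. By edgeR's quasi-likelihood test 24 comparisons called 0 of them, and the other 3 gave 4 calls. That is 0.512% of their 782 tests, against 0.133% of the tests over all identifiers. The calls include identifiers that passed the filter only through the levels where they are high. In 19 comparisons 0 of all identifiers were called. Without adjustment, 68 of the 782 had a p below 0.05, or 8.7%, against 7.66% of all tests. By comparison, that share ran from 0% to 25% for the 200 and from 1.46% to 17.9% for all identifiers. It lay on either side of the share of all: in adult quail, trenbolone had 23.8% against 6.39% and fluoxetine 15% against 17.9%. Nothing is read from the single unadjusted counts given below. Comparisons within a table share its control or MED libraries. DESeq2 called an identifier in 4 of the 24 comparisons where edgeR called 0. No share over all identifiers is given for the DESeq2 counts.

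Ethinylestradiol gave 1 called identifier, in early-life quail. It was s2f_0002622005, rank 91, which rose at both levels. Its counts were 1, 0, 2, 1 and 0 in the controls, 8, 8, 3, 16 and 24 at MED and 10, 13, 12, 6 and 9 at HIGH. That corresponds to 0.0461 ± 0.0527 CPM in controls, 0.558 ± 0.406 CPM at MED and 0.455 ± 0.130 CPM at HIGH (SD, n = 5 each). Every exposed library was above every control. No control came near the filter's minimum count of 10, so the identifier passed the filter only through exposed libraries, where it is high. Its tests are not independent of that filter. The log2 fold change was 3.39 at MED (SE 0.68; edgeR adjusted p = 0.0201) and 3.16 at HIGH (SE 0.69; adjusted p = 0.0398). It was the only one of 31 tested at MED, 3.23%, against 1.23% of all 12992 identifiers, and the only one of 31 at HIGH, 3.23%, against 0.962% of all.

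These calls rest on few counts. The HIGH call was lost without any 1 of HIGH 1, 2, 3 or 5 or of controls 1, 2, 4 or 5, and the MED call without control 1, 2 or 5. DESeq2 made both calls. The same identifier reached 1.59 CPM in a hexabromocyclododecane MED library of early-life quail, above every ethinylestradiol library. In the cormorant ethinylestradiol libraries it averaged 0.199 ± 0.241 CPM at HIGH and 0.0261 ± 0.0358 CPM at MED (SD, n = 5 each). In adult quail tables that list it, it had a count in 6 of 71 libraries and stayed at or below 0.0894 CPM.

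In adult quail, ethinylestradiol called 0 of 33 identifiers at HIGH (0.0587% of all 11932) and 0 of 33 at MED (0% of all). A p below 0.05 without adjustment was seen for 4 at HIGH and 3 at MED, and DESeq2 called 0 at each level. In cormorants 0 of 39 were called at HIGH against MED (0% of 13293), with 4 below 0.05 unadjusted and 0 by DESeq2. A test of the difference between the HIGH responses of adult and early-life quail called 0 of 52 by edgeR, against 0.442% of all 13363, with 4 below 0.05 unadjusted and 0 by DESeq2. The identifier that led adult livers, s2f_0007206002, had a log2 fold change of 4.37 at MED (SE 1.48; adjusted p = 0.487) in adults, where MED 3 had 2380 CPM and the other MED libraries 10.6 to 19.8 CPM.

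The 10 cormorant ethinylestradiol libraries were also set beside the 29 chlorpyrifos and fluoxetine libraries of cormorants, as a description. Of 186 listed identifiers of the 200, 3 lay above all 29 and 1 lay below all 29. Over all 18040 identifiers, 22.2% did not overlap, 3652 above and 361 below. The one below was s2f_0039692001, with 0.374 to 4.67 CPM in the ethinylestradiol libraries against 5.73 to 22.0 CPM in the others. Among those above was rank 4, s2f_0000978002, with 3.52 to 7.11 CPM against 1.40 to 3.48 CPM. Chemical and table cannot be told apart here.

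Chlorpyrifos gave 2 called identifiers, again in early-life quail, where HIGH could be compared with MED only. Rank 19, s2f_0007472015, rose at HIGH. It had 4.14, 5.73, 3.54, 4.82 and 3.08 CPM at HIGH and 1.11, 0.724, 1.44, 1.01 and 1.499 CPM at MED, without overlap. On the log2 scale it was higher by 1.88 (SE 0.25; edgeR adjusted p = 0.00865), and the call held whichever single library was left out. Its level varied in other early-life quail tables as well, up to 5.29 CPM in a benzo[a]pyrene MED library. Early-life ethinylestradiol controls had 0.770 to 2.04 CPM.

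Rank 95, s2f_0005863003, fell at HIGH. It had 0.337, 0.270, 0.263, 0.544 and 0.508 CPM at HIGH and 2.61, 0.965, 3.33, 1.24 and 1.499 CPM at MED, again without overlap. The log2 fold change was -2.29 (SE 0.39; edgeR adjusted p = 0.0308). Its HIGH libraries alone were too low for the filter on low counts, so it was tested through MED, where it is high. The call was lost without HIGH 1, 2, 3 or 5 or without MED 1, 3 or 5. The 2 called were 6.67% of 30 tested, against 0.642% of all 12925 identifiers, and DESeq2 also called 2. In cormorants edgeR called 0 of 29 at HIGH against control (0.0231% of all 13015) and 0 of 29 at MED (0.0615% of all), with 1 and 3 below 0.05 unadjusted and 0 by DESeq2 at both levels. In adult quail 0 of 17 were called at HIGH against MED (0% of 11044), with 0 below 0.05 unadjusted and 0 by DESeq2.

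**Figure D5:**
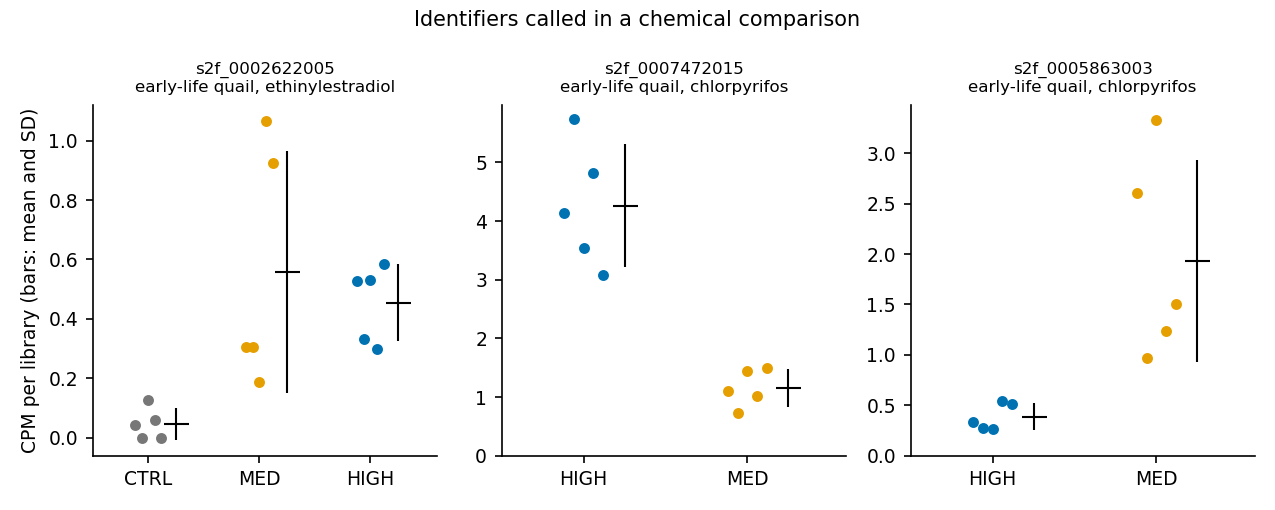
CPM per library of the 3 identifiers called in a chemical comparison, with mean and SD as bars: s2f_0002622005 by ethinylestradiol level, s2f_0007472015 and s2f_0005863003 in the chlorpyrifos table, all in early-life quail (5 libraries a group). In each panel the compared groups do not overlap, and controls of s2f_0002622005 lie at or below 0.128 CPM. The identifiers are shown because they were called between these groups, so the lack of overlap is no further support.

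Benzo[a]pyrene controls of cormorants and early-life quail ranked the list, so their contrasts are given as a description. In cormorants 0 of 200 identifiers lay above all 5 controls and 2 below them at MED, which is 1% against 0.413% of all identifiers, and 0 above and 1 below at HIGH, 0.5% against 0.694%. In early-life quail 0 lay above and 2 below at MED, 1% against 0.938%, and 2 above and 1 below at HIGH, 1.5% against 1.35%. Nothing is read from these counts. The median log2 ratio to controls was -0.66 at MED and -0.65 at HIGH in cormorants, where control 2 stands apart. In early-life quail it was -0.15 at MED and 0.05 at HIGH. A list taken for its levels in these controls can have lower ratios by that choice. No median over all identifiers stands beside them, so nothing is read from these ratios either.

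The tests that benzo[a]pyrene allowed called no identifier of the 200. By edgeR, HIGH against MED gave 0 of 31 in cormorants (0% of 13032), with 0 below 0.05 unadjusted and 0 by DESeq2. In early-life quail it gave 0 of 38 (0% of 12908), with 5 below 0.05 unadjusted and 1 by DESeq2. Adult quail gave 0 of 19 at HIGH and 0 of 19 at MED against control (0% of 11333 each), with 2 and 4 below 0.05 unadjusted and 0 by DESeq2 at both levels. Fold changes in adults ran from -2.68 to 1.72 at HIGH and from -2.42 to 2.12 at MED on the log2 scale.

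Fluoxetine called none of the 200 by edgeR, yet held 2 of the 3 adult libraries richest in s2f_0007206002. In adult quail it had 2701, 1821, 46.0, 12.2 and 13.6 CPM at HIGH and 20.7, 2.66, 10.6, 1.49 and 5.59 CPM at MED. The groups overlap, and 2 of the 5 HIGH libraries are far above the rest. The log2 fold change was 6.88 (SE 1.72; edgeR adjusted p = 0.138), and DESeq2 called it. It was the 1 identifier that DESeq2 called of the 20 tested, of which edgeR called 0 (0% of 11261), with 3 below 0.05 unadjusted. In cormorants 0 of 31 were called at HIGH and 0 of 31 at MED (0% of 12991 each), with 0 and 1 below 0.05 unadjusted and 0 by DESeq2 at both. In early-life quail 0 of 29 were called at HIGH against MED (0% of 12551), with 4 below 0.05 unadjusted and 0 by DESeq2.

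Lead was tested in the table labelled adult. There edgeR called 0 of 24 at HIGH (0.0256% of 11724), with 6 below 0.05 unadjusted and 1 by DESeq2, and 0 of 24 at MED (0% of 11724), with 1 below 0.05 unadjusted and 0 by DESeq2. Single libraries set the sums here: the summed level was 245 ± 165 CPM in controls, 147 ± 107 CPM at MED and 107 ± 59.6 CPM at HIGH (SD, n = 5 each), and s2f_0007206002 ranged from 1.05 to 425 CPM over the 15 libraries.

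Selenomethionine called 0 of 24 at HIGH against MED in adult quail by edgeR, where 0.473% of all 11616 identifiers were called, with 1 below 0.05 unadjusted and 1 by DESeq2. In early-life quail 0 of 33 were called at HIGH and 0 of 33 at MED against control (0% of 12817 each), with 1 below 0.05 unadjusted at each level and 0 by DESeq2. The summed level in early-life quail was 48.4 ± 4.66 CPM in controls, 50.9 ± 4.004 CPM at MED and 48.7 ± 2.80 CPM at HIGH (SD, n = 5 each), a difference smaller than the spread.

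Trenbolone called 0 of 21 at HIGH against MED in adult quail by edgeR (0% of 11176), with 5 below 0.05 unadjusted and 0 by DESeq2. Early-life quail gave 0 of 40 at HIGH and 0 of 40 at MED against control (0% of 12887 each), with 2 below 0.05 unadjusted at each level and 0 by DESeq2. In adults s2f_0007206002 averaged 163 ± 157 CPM at HIGH and 319 ± 672 CPM at MED (SD, n = 5 each), with overlapping ranges.

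Hexabromocyclododecane called 0 of 15 at HIGH against MED in adult quail (0% of 11319) and 0 of 38 in early-life quail (0% of 13105) by edgeR, with 2 below 0.05 unadjusted and 0 by DESeq2 at each stage. The summed level in early-life quail was 65.0 ± 16.6 CPM at HIGH and 71.3 ± 18.2 CPM at MED (SD, n = 5 each), and MED held the highest early-life quail library at 98.2 CPM.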

How the data were processed

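Liver RNA of cormorants and quail was extracted with column kits and sequenced as paired-end reads on Illumina instruments, per the labels' protocols. Per identifier and library, the authors deposited counts as whole numbers, and these were used as raw counts, each table covering 1 species, stage and chemical. The aligner and counter were not given in the sources used here, nor was the reference behind the identifiers. CPM is a count over the library's total. The 52 per-sample columns that match no label were not used, 2526 identifiers with an empty cell in the early-life quail chlorpyrifos table were left out there, and the early-life lead table was left out as a copy. The members, lists and comparisons were chosen with earlier results of these data known.

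Each table was fitted whole with all its level groups: filterByExpr (minimum count 10, minimum total 15), TMM scaling, and the quasi-likelihood test of edgeR 4.0.16 with limma 3.58.1 under R 4.3.3, with Benjamini-Hochberg adjustment over all identifiers tested and a threshold of 0.05. An SE was taken as the absolute log2 fold change over the square root of F. For stage and species, control counts were summed per table, the table being the unit, over identifiers listed in every table used. The scripts were tested on simulated data. Alternatives were DESeq2 1.42.0, RLE factors, no low-count filter, a replicate block, single libraries or tables left out, libraries as the unit, absent identifiers as 0, and the lead controls added. Library totals in place of TMM, libraries standing apart left out and the ranking without 1 control were chosen after seeing the data. Levels were named for ranks 1 to 5, 100 and 200 and the first identifier outside, and changes for at most 2 identifiers a direction, those called in the most chemical comparisons. Any other identifier named was chosen after its values were seen. Library totals ranged from 7749387 to 49078234 counts.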

Additional observations from a re-analysis of the deposited data

Results flagged for a closer look

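In 11 of 53 groups of 4 to 6 libraries, 1 library lay far from the others by Dixon's ratio of its gap to the group's range. Chance alone gives about 1 in 20 for normally distributed values, which the summed CPM need not be. The controls that ranked the list were not tested. All 11 concern the summed CPM of the 200 identifiers, which made up 46 of the 53 groups. In adult quail the high libraries had 2451 CPM for ethinylestradiol MED (others 74.3 to 101), 1604 CPM for trenbolone MED (68.2 to 259) and 420 CPM for hexabromocyclododecane MED (59.7 to 83.7). Lead HIGH had one at 212 CPM (others 68.4 to 91.0) and the benzo[a]pyrene controls one at 409 CPM (59.6 to 86.7). In cormorants single libraries were high for chlorpyrifos MED at 113 CPM (86.4 to 91.3) and its controls at 108 CPM (93.1 to 95.6), and for ethinylestradiol MED at 165 CPM (114 to 127).

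In early-life quail the high libraries had 84.5 CPM for ethinylestradiol MED (others 55.3 to 62.6) and 73.6 CPM for chlorpyrifos HIGH (48.9 to 55.9). A low one was a trenbolone control at 43.6 CPM (52.3 to 54.9). What sets these libraries apart was not tested.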

How the results depend on the processing

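Under RLE factors and without the low-count filter, all 30 counts of called identifiers stayed within 1.5 times their values. DESeq2 moved 4 of 30 counts, each to 1 where edgeR gave 0 (adult fluoxetine, lead HIGH and selenomethionine, and early-life benzo[a]pyrene HIGH against MED). Leaving out single libraries gave 1 to 2 calls for early-life chlorpyrifos, 0 to 1 for early-life ethinylestradiol at HIGH and at MED, and 0 to 1 for adult selenomethionine (1 without HIGH replicate 4). Leaving out single tables gave 35 to 44 calls for stage and 50 to 60 for species. With libraries as the unit, where the filter passed fewer identifiers (49 and 55), the calls were 30 for stage and 41 for species. The counts under these settings have no share over all identifiers beside them. Same-numbered libraries did not deviate together as a rule, although some pairs did: 41 of 192 pairs had a correlation over 0.1. In 0 of 19 tables did every pair. The correlations ran from -0.48 to 0.614, with a median of 0.0228. With the replicate number as a block, 0 were called for early-life chlorpyrifos and 0 for early-life ethinylestradiol at either level, and the block moved no other count. The stage log2 fold change of s2f_0000229041, not called in the main test, was -0.88 without the libraries that stand apart. Those libraries were picked for a high summed level of the 200. For any chemical, 115 of the 200 identifiers did not pass the filter on low counts and were not tested.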
